A study of Mus musculus with 6 samples.

Results

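The myelin sheath and the mature oligodendrocyte that makes it were followed through 9 genes in mouse brain. They are Mbp, Mobp, Mog, Mag, Opalin, Mal, Cldn11, Cnp and Myrf, chosen by name, and all 9 were found among the 43346 gene symbols of the count table and among the 15030 genes with enough counts to be tested. Brain RNA was taken from adult males of the C57BL/6 strain, with 3 Kdm6a deficient animals compared with 3 wild-type littermates. All 6 came from matings of females with a loxP-flanked Kdm6a and males with Thy1-Cre, a transgene whose promoter drives Cre recombinase mainly in neurons. The labels do not say which of these alleles the wild-type mice carry or which part of the brain was taken. Kdm6a encodes an X-linked demethylase of lysine 27 of histone H3.

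Oligodendrocytes wrap axons of the central nervous system in myelin, a stack of membrane that speeds conduction. The stack is held together on its cytoplasmic side by small basic proteins, at its edges by adhesion proteins and claudin strands, and next to the axon by a receptor-like glycoprotein. The transcription factor MYRF, acting with SOX10, switches on the genes of the sheath when a precursor matures, and it is needed in the adult to keep them on. The comparison asked whether these transcripts differ between deficient and wild-type brains, and how far they vary from mouse to mouse. In whole tissue, fewer oligodendrocytes and less RNA per oligodendrocyte cannot be told apart.

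None of the 9 genes passed a false discovery rate (FDR) of 5% between genotypes in edgeR's quasi-likelihood test, against 0.0466% of all genes tested, and 8 of the 9 had lower fitted levels in the deficient mice. Their median log2 fold change, deficient over wild type, was -0.085 against a median of 0.002 over all genes tested, of which 49.2% were negative. The fitted levels ran from 92.9% of wild type for Myrf to 100.2% for Mag. Across the 9 genes the 95% intervals of the difference ran from 80.4% to 110.5% of the wild-type level. In 8 of the 9, Mal being the exception, the values of the deficient and wild-type mice overlapped. Deficient mouse 3 was the lowest of the 6 mice for 7 of the 9 genes, and wild-type mouse 1 was high for Mbp and Mobp while it was the lowest mouse for Mag.

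The stretches before the transcription start of 4 of the genes are shown because MYRF, itself one of the 9, and SOX10 act at such genes. Of the 7 genes with such a stretch, these 4 had the most matches to the motifs named below. Each is 250 bases long and ends at the base before the RefSeq start (GRCm38.p6), written along the gene's own strand. By the GENCODE annotation, used for the gene positions below, the gene starts earlier, by 35 bases for Mobp and Cnp and 10 for Mag. The ends of these stretches thus lie inside the gene by that annotation. Mag has 3 RefSeq stretches, of which the nearest to the GENCODE start was used. Capitals mark matches on either strand to CTGGNAC, used here as a MYRF-type pattern, or to ACAANG, used as a SOX-type pattern. N is any base, so these patterns may be looser than the sites that the factors bind. Mag is from chr7:30914864-30915113 (minus strand), Cnp from chr11:100574689-100574938 (plus strand), Mog from chr17:37023399-37023648 (minus strand) and Mobp from chr9:120149492-120149741 (plus strand).
Mag: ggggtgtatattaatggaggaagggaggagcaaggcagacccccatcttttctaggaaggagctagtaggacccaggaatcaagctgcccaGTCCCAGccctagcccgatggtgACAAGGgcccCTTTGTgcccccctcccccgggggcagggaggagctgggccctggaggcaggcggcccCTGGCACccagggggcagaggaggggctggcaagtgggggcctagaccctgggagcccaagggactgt
Cnp: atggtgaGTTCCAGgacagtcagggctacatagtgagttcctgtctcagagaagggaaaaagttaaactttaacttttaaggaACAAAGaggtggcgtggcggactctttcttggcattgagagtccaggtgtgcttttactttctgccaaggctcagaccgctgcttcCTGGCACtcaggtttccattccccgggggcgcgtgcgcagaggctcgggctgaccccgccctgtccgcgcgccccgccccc
Mog: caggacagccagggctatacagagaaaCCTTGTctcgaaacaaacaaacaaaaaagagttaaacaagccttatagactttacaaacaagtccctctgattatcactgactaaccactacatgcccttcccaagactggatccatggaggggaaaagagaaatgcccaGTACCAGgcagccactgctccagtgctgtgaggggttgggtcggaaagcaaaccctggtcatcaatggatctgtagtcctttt
Mobp: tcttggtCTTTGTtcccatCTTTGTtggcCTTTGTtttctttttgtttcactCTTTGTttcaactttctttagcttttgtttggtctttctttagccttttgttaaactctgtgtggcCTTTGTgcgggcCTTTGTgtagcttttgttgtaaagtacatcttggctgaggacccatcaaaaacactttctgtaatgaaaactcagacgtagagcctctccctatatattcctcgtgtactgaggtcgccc
Of the 9 genes 7 had such a stretch in the RefSeq table. The first motif was found in 3 of the 7, with 2 matches in Mag, 2 in Cnp and 1 in Mog. It was found in 16.0% of 27025 stretches of the same length. Those were 1 per gene, the first listed, whereas for the 7 the stretch nearest to the GENCODE start was taken. The second motif was found in 5 of the 7 and in 36.6% of all stretches. Mal and Cldn11, not shown, had no match to either motif, and Opalin, not shown, had 1 to the second. Mobp had 6 matches to it, the most of the 7. All 6 read CTTTGT and lie in a T-rich part of the stretch. That number was reached by 0.0185% of all stretches. This share was taken at Mobp's own count, after it was seen, and is not a test. In 0 of the 7 did matches to the motifs overlap each other. A match describes the letters alone and is not a bound site.

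The compact part of the sheath was represented by Mbp and Mobp. Mbp encodes myelin basic protein, which glues the cytoplasmic faces of the membrane together, and its mRNA is carried out into the cell processes and translated there. The gene spans 82475146 to 82585637 on chromosome 18 (GRCm38, GENCODE, plus strand). The counts of deficient mice 1, 2 and 3 were 69442, 78080 and 57897, and those of wild-type mice 1, 2 and 3 were 82536, 53620 and 72987. In counts per 1000000 of the scaled library total (CPM), these were 3099, 3170 and 2835 in the deficient and 3662, 2904 and 3053 in the wild-type mice. The groups overlapped, with the highest and the second lowest value both in the wild-type group. The means were 3034 ± 176.5 and 3207 ± 402 CPM (SD, n = 3 each). On the log2 scale the fitted difference was -0.08 (SE 0.09, adjusted p = 0.943 by edgeR). Leaving out wild-type mouse 1 turned it to 0.027.

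Mobp encodes a basic protein of compact central myelin whose mRNA is also found in the processes, and it lies on chromosome 9 from 120149707 to 120181484 (plus strand). Its level was 1066, 1047 and 1027 CPM in the deficient mice and 1233, 1012 and 1036 CPM in the wild-type mice. As for Mbp, wild-type mouse 1 stood alone at the top, and the other 5 mice lay close together with the genotypes mixed. Its fold change was -0.06 (log2, SE 0.07, adjusted p = 0.938 by edgeR), and 0.031 without wild-type mouse 1. The ratio of Mbp to Mobp within a mouse was 2.91, 3.03 and 2.76 in the deficient and 2.97, 2.87 and 2.95 in the wild-type mice, so the rise in wild-type mouse 1 was shared by these transcripts in nearly the same proportion.

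**Figure D1:**
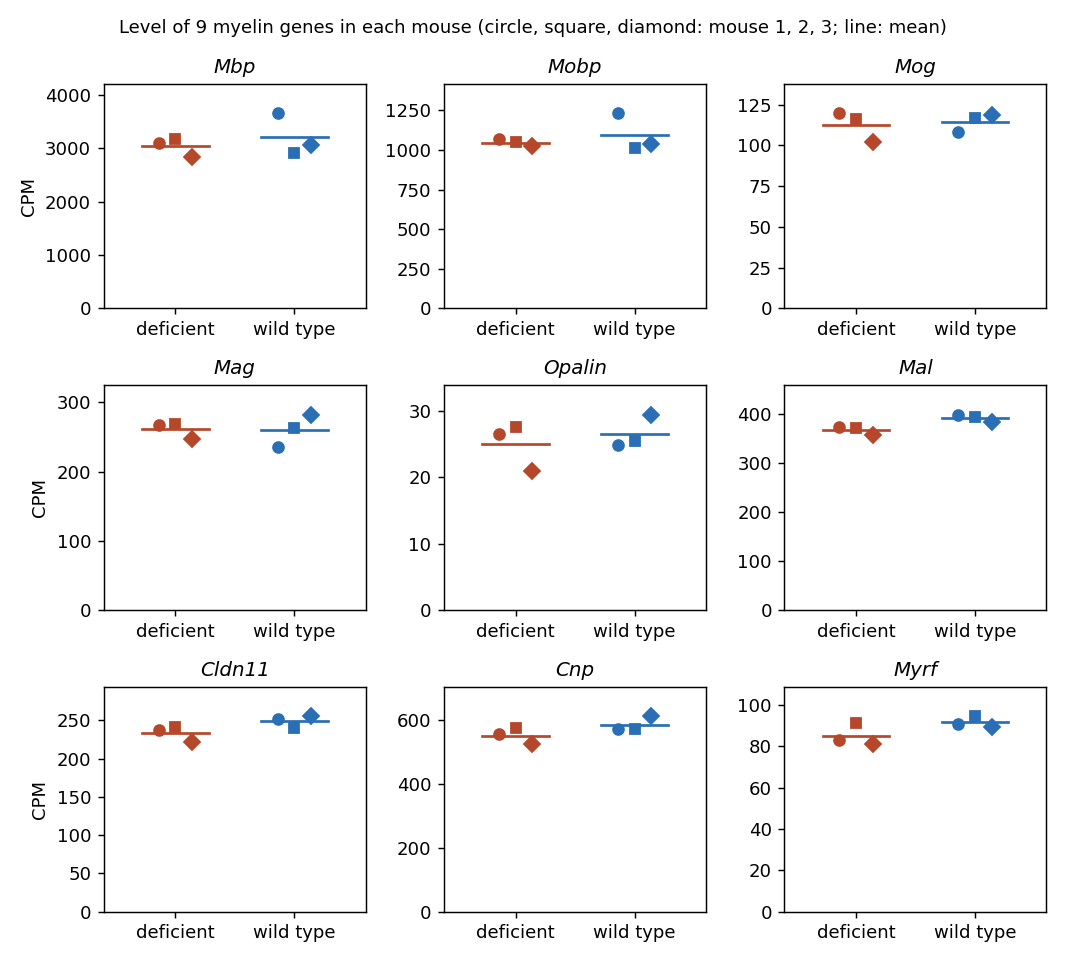
Level of each of the 9 genes in CPM (y axis, from 0, with its own scale in each panel) in deficient (red) and wild-type mice (blue). Symbols are single mice and lines are group means of 3 mice. The groups overlap in every panel except that of Mal, where the 3 deficient mice lie at 357 to 375 CPM and the 3 wild-type mice at 385 to 399 CPM.

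The inner and outer faces of the sheath gave a different order of mice. Mag encodes myelin-associated glycoprotein, an adhesion molecule of the innermost wrap that faces the axon, on chromosome 7 from 30899176 to 30914873 (minus strand). It stood at 267, 268 and 248 CPM in the deficient mice and at 236, 263 and 282 CPM in the wild-type mice. Here wild-type mouse 1 was the lowest and wild-type mouse 3 the highest of all 6, so that the deficient values lay inside the wild-type range. The log2 difference was 0.003 (SE 0.06, adjusted p = 0.999 by edgeR) with a 95% interval of 91.3% to 110.0% of wild type, and it was negative without deficient mouse 1 (-0.015), deficient mouse 2 (-0.019) or wild-type mouse 1 (-0.064).

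Mog encodes myelin oligodendrocyte glycoprotein, an immunoglobulin-like protein on the outermost surface of the sheath (chromosome 17, 37010743 to 37023398, minus strand). Its level was 119.9, 115.9 and 102 CPM in the deficient mice and 108, 117 and 118.5 CPM in the wild-type mice. The lowest values of each group came from the same mice as for Mag, deficient mouse 3 and wild-type mouse 1. By edgeR the log2 difference of Mog was -0.024 (SE 0.06, adjusted p = 0.981). It was 0.041 without deficient mouse 3 and 0.002 without wild-type mouse 3.

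Opalin, a transmembrane sialoglycoprotein of oligodendrocytes, had the fewest reads of the 9 and the widest spread (chromosome 19, 41061710 to 41077113, minus strand). It had 596, 680 and 427 counts in the deficient and 561, 470 and 704 in the wild-type mice, or 26.6, 27.6 and 20.9 against 24.9, 25.5 and 29.4 CPM. Deficient mouse 3 lay below all other mice and wild-type mouse 3 above them, and the other deficient mice lay above the other wild-type mice. Its log2 difference was -0.09 (SE 0.10, adjusted p = 0.945 by edgeR) and 0.025 without deficient mouse 3.

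The proteins of membrane rafts, tight junctions and cytoplasmic channels varied least. Mal encodes a small proteolipid of sheath membrane rafts (chromosome 2, 127633226 to 127656695, minus strand). It had 8398, 9176 and 7299 counts in the deficient and 9002, 7263 and 9198 in the wild-type mice, or 375, 372.5 and 357 against 399, 393 and 385 CPM. This was the only gene of the 9 whose genotypes did not overlap. Of all 15030 genes tested, 825 (5.49%) were separated in the same direction and 857 in the other. The means were 368 ± 9.44 and 392.5 ± 7.38 CPM (SD, n = 3 each). Mal differed by -0.09 on the log2 scale (SE 0.04, adjusted p = 0.850 by edgeR), with a 95% interval of 88.1% to 99.9% of wild type. It was the only member with an unadjusted p under 0.05 by edgeR. Of all 15030 genes tested, 496 (3.30%) had such a p with a lower level in the deficient mice. Another 385 had such a p with a higher level.

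Cldn11 encodes claudin-11, which forms the tight junction strands between the wraps of central myelin (chromosome 3, 31149920 to 31164324, plus strand). Its level was 237, 242 and 221 CPM in the deficient mice and 251, 239.5 and 255 CPM in the wild-type mice. Deficient mouse 2 lay above wild-type mouse 2 and the other deficient mice lay below the whole wild-type group. Its difference was -0.09 (log2, SE 0.05, adjusted p = 0.875 by edgeR). Cnp encodes a phosphodiesterase that keeps cytoplasmic channels open in the sheath (chromosome 11, 100574904 to 100591729, plus strand). It stood at 554, 574 and 523 CPM in the deficient mice and at 569.5, 570.0 and 611 CPM in the wild-type mice. Deficient mouse 2 lay above wild-type mice 1 and 2, and deficient mice 1 and 3 lay below every wild-type mouse. For Cnp edgeR gave -0.09 (log2, SE 0.05, adjusted p = 0.885). Exons of Dnajc7 on the opposite strand overlap 4.23% of the exon bases of Cnp, and without a stated strand setting reads from that stretch cannot be told apart.

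Myrf, the regulator of the others, lies on chromosome 19 from 10208272 to 10240748 (minus strand). It had 1863, 2245 and 1654 counts in the deficient and 2048, 1748 and 2143 in the wild-type mice, or 83.1, 91.1 and 81.0 against 90.9, 94.7 and 89.6 CPM. Deficient mouse 2 lay inside the wild-type range, and deficient mice 1 and 3 lay below it. Its log2 difference of -0.11 (SE 0.05, adjusted p = 0.861 by edgeR) was the lowest of the 9, with a 95% interval of 85.8% to 100.5% of wild type.

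**Figure D2:**
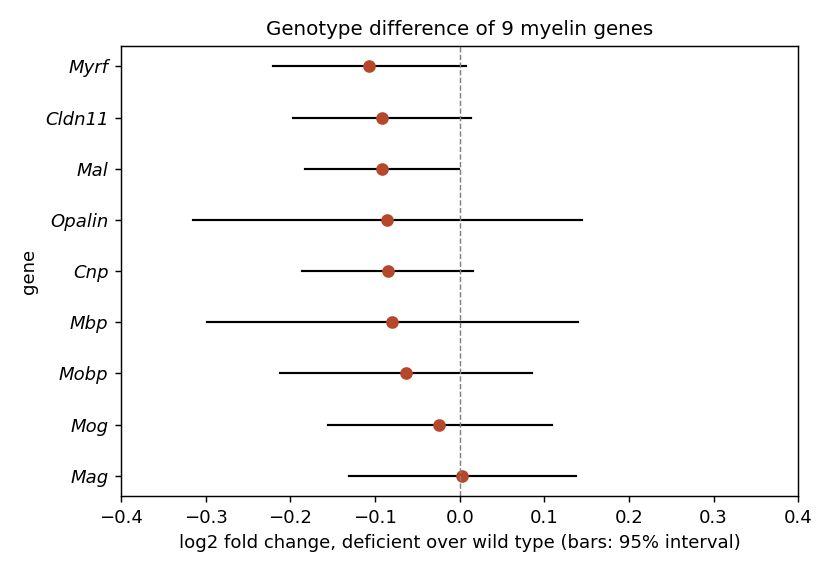
Log2 fold change, deficient over wild type (x axis), of each gene (y axis), with its 95% interval from the edgeR fit of 3 mice against 3. The points run from -0.11 for Myrf to 0.003 for Mag, and the interval of Mal alone lies below 0.

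The 9 genes differed in how far mice of the same genotype spread. The pooled within-genotype SD of log2 CPM was 0.03 for Mal, 0.06 for Cldn11 and Cnp and 0.07 for Myrf, against a median of 0.07 over the 9979 genes with a mean of at least 10 CPM. It was 0.10 for Mog and Mag, 0.11 for Mobp, 0.14 for Mbp and 0.18 for Opalin. Of those 9979 genes, 7.08% had a lower SD than Mal, 89.9% a lower one than Mbp and 96.1% a lower one than Opalin. Counting error alone gives an SD of 0.0055 for Mbp and 0.0603 for Opalin on the same scale, below the measured spread of both.

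The mice differed in which genes were high. Relative to the mean of the 6 mice, wild-type mouse 1 stood at 0.24 (log2) for Mbp and 0.21 for Mobp, at 0.07 for Mal and 0.06 for Cldn11, and at -0.04 for Opalin, -0.06 for Mog and -0.14 for Mag. The ratio of Mbp to Mag CPM was 15.55 in that mouse and 10.8 to 11.8 in the other 5. Deficient mouse 3 was below the mean of the 6 mice for every gene of the 9, from -0.06 for Mobp to -0.30 for Opalin. Wild-type mouse 3 was highest for Mag, Opalin, Cldn11 and Cnp. Together the 9 genes took 0.548% of all counts in deficient mouse 3, 0.581% and 0.593% in the other deficient mice, and 0.648%, 0.559% and 0.587% in wild-type mice 1, 2 and 3. Wild-type mouse 1 was the top of this range and deficient mouse 3 the bottom, and Mbp made up most of the sum.

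**Figure D3:**
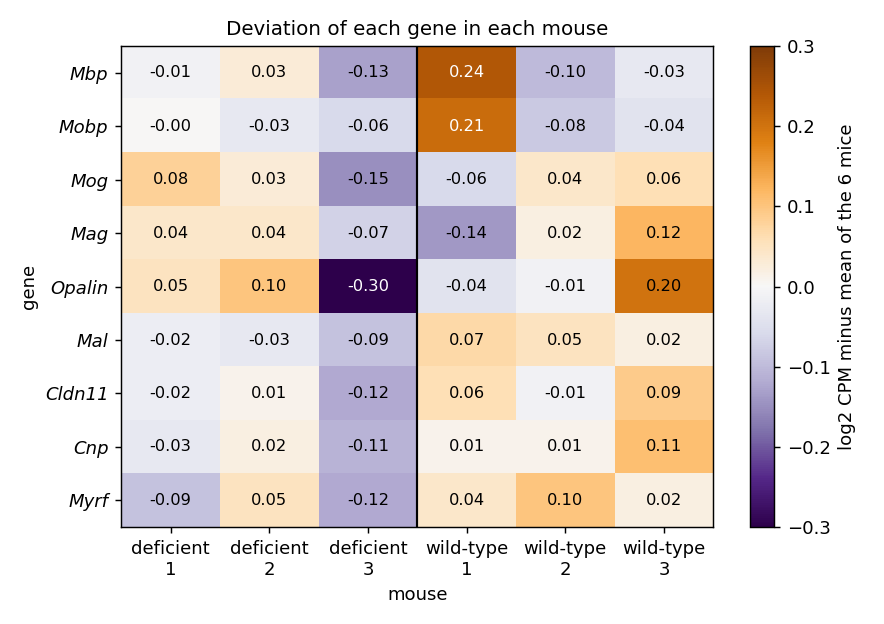
Log2 CPM of each gene (rows) in each mouse (columns) minus the mean of the 6 mice, with the color scale at the right and the value in each cell. Wild-type mouse 1 is high at 0.24 and 0.21 for Mbp and Mobp and low at -0.14 for Mag, and the column of deficient mouse 3 is negative throughout.

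Per kilobase of exon, the 9 transcripts spanned a wide range of levels. Over the 6 mice Mbp stood at 368.5 ± 34.6 CPM per kilobase of all annotated exons (SD, n = 6), above all others. Mobp at 156 ± 11.9, Cnp at 156 ± 7.87, Mal at 137 ± 5.51 and Cldn11 at 129 ± 6.43 formed a chain in which each range overlapped the next. Mog at 66.7 ± 4.03 and Mag at 64.0 ± 4.06 overlapped each other, as did Myrf at 10.3 ± 0.612 and Opalin at 8.76 ± 0.985 (CPM per kilobase, SD, n = 6). With the length of the longest transcript, Mobp moved to 326 and Cnp to 195, which separated them, and Mag, at 107, stood above Mog, at 66.7. Mbp, whose locus has 16 annotated transcripts, moved to 650.5 and stayed above all others.

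Other genes of the sheath and of its lipids also had no call. Of 22 other myelin sheath proteins listed, 21 were tested, none passed 5% FDR in either direction, 13 had negative log2 fold changes and the median was -0.023. Cd82, a tetraspanin, had the smallest p of them at -0.27 (SE 0.07, edgeR adjusted p = 0.462), with 24.2 ± 1.31 against 29.2 ± 2.25 CPM (SD, n = 3 each). Nfasc, whose glial form anchors the sheath beside the node, stood at -0.08 (SE 0.05), Sirt2, a deacetylase found in myelin, at -0.07 (SE 0.04), and Nkain2 at 0.09 (SE 0.05). Of 19 genes of myelin lipid synthesis none passed, 12 were negative and the median was -0.005. Fa2h, which makes the hydroxylated fatty acids of myelin galactolipids, stood at -0.11 (SE 0.04, edgeR adjusted p = 0.778) with 70.1, 69.1 and 67.6 CPM in the deficient and 74.1, 75.0 and 74.9 CPM in the wild-type mice, without overlap. Scd2, a fatty acid desaturase, at -0.09 (SE 0.04) and Cyp51, an enzyme of cholesterol synthesis, at -0.08 (SE 0.05) also had no overlap. That makes 3 of the 19 genes, all lower in the deficient mice. Of all 15030 genes tested, 825 (5.49%) were separated in that direction and 857 in the other.

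Among 30 other markers of mature oligodendrocytes 29 were tested, none passed 5% FDR, 16 were negative and 13 positive, and the median was -0.021. Sema4d, a semaphorin, stood at -0.13 (SE 0.05), and Cryab, a small heat shock protein, at -0.15 (SE 0.06). Ptgds, a prostaglandin synthase that meninges and choroid plexus also express, stood at 0.12 (SE 0.05) and Cercam at 0.25 (SE 0.12), each with an edgeR adjusted p of 0.771 or above. Of the 16 genes that promote oligodendrocyte development none passed, 9 were negative and the median was -0.027. Sox8, a SOX factor of the lineage, stood at -0.11 (SE 0.05, edgeR adjusted p = 0.850), Zfp488 at -0.24 (SE 0.13), Hdac1 at -0.29 (SE 0.17) and Nkx6-2 at -0.12 (SE 0.08). Sox10, the partner of MYRF, was at 60.0, 56.8 and 49.7 CPM in the deficient and 55.7, 53.8 and 57.7 CPM in the wild-type mice, with the lowest value again in deficient mouse 3. Of 11 genes that restrain maturation none passed and the median was 0.042. Id4, an inhibitor of basic helix-loop-helix factors that astrocytes also express, had 62.1, 62.3 and 62.2 CPM in the deficient and 52.0, 58.4 and 53.4 CPM in the wild-type mice, or 0.19 on the log2 scale (SE 0.05, adjusted p = 0.523). Sox6 stood at -0.10 (SE 0.06), Bmp4 at 0.16 (SE 0.15) and Hes5 at 0.10 (SE 0.14).

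The 12 markers of precursors and of committed precursors gave 11 tested genes, none of which passed, with a median of -0.005. Neu4 stood at -0.11 (SE 0.09), Ptprz1 at 0.05 (SE 0.05), Tmem100 at -0.13 (SE 0.15), and C1ql1, a scarce transcript with 0.684 ± 0.271 against 0.472 ± 0.0994 CPM (SD, n = 3 each), at 0.49 (SE 0.37). Of 20 receptors and axonal partners of myelin none passed, 14 were negative and the median was -0.019. Erbb3, a neuregulin receptor of the lineage, stood at -0.17 (SE 0.08, edgeR adjusted p = 0.856). Rtn4rl1, a relative of the receptor for Nogo and MAG, stood at -0.10 (SE 0.06), and the axonal adhesion genes Cntn2 and Cntn1 at -0.06 and -0.05 (SE 0.04 each).

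**Figure D4:**
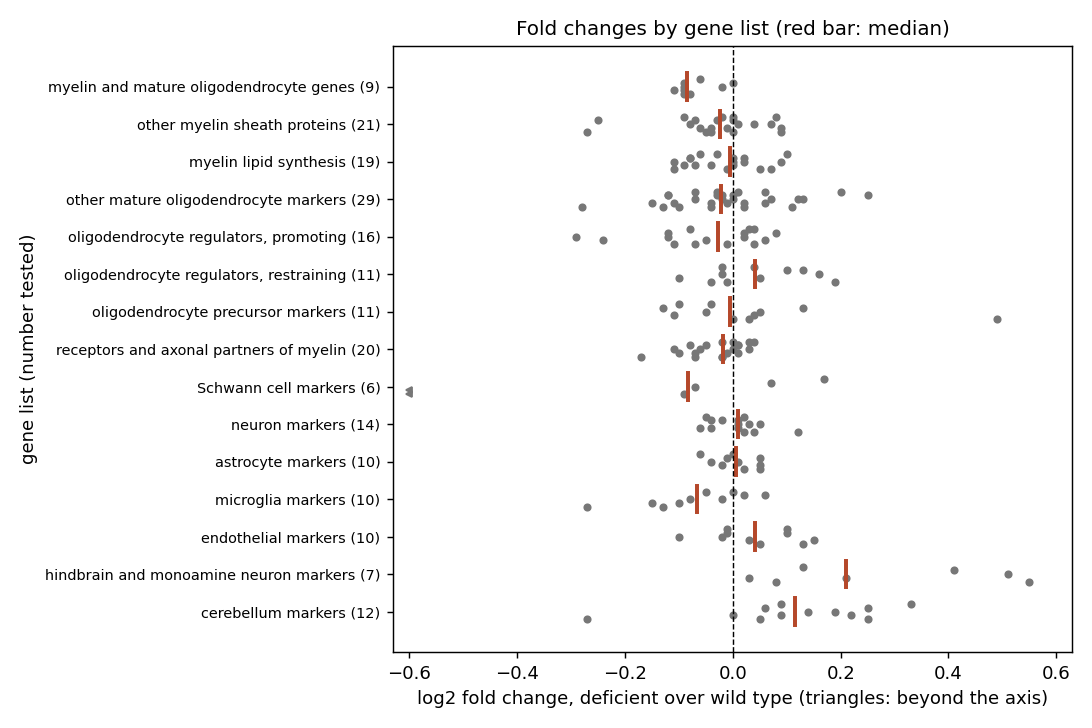
Log2 fold change, deficient over wild type (x axis), of the tested genes of each list (rows, with their number), where gray points are genes, red bars are medians and triangles lie beyond the axis. The median of the 9 genes is -0.085, and the 7 lists below it of the oligodendrocyte lineage and its partners have medians between -0.027 and 0.042.

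The low position of deficient mouse 3 varied among the other lists of the lineage. That mouse was the lowest of 6 for 17.0% of the 9979 genes with a mean of at least 10 CPM. It was the lowest for 10 of 21 other sheath proteins, 6 of 19 genes of lipid synthesis, 10 of 29 other oligodendrocyte markers and 9 of 16 promoting regulators. It was also the lowest for 3 of 11 precursor markers, 4 of 20 receptors and axonal partners and 1 of 11 restraining regulators. Among other cells, it was lowest for 2 of 14 neuron markers, 2 of 10 astrocyte markers, 6 of 10 microglia markers and 0 of 10 endothelial markers. In the same mouse, the list means of cerebellum markers and of hindbrain and monoamine neuron markers were at their highest. Their mean log2 level relative to wild type was 0.24 over 12 and 0.48 over 7 tested genes. Not every gene of these lists followed the mean, as Grm4 was highest in deficient mouse 2 and Slc6a2 in deficient mouse 1. These lists stood at -0.07 and -0.08 in deficient mouse 1, at 0.17 and 0.26 in deficient mouse 2, and between -0.13 and 0.10 in the wild-type mice. The 9 myelin genes stood at -0.04, -0.01 and -0.16 in deficient mice 1, 2 and 3 and at 0.01, -0.03 and 0.03 in wild-type mice 1, 2 and 3. The part of brain region in the values of the myelin genes was not tested. Without deficient mouse 3 the median log2 fold change of the 9 genes was -0.050, with 6 of 9 negative.

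The summed level of neuron markers was 10418 to 10864 CPM in the deficient and 10514 to 10683 CPM in the wild-type mice, and that of astrocyte markers 5753 to 6033 and 5655 to 6077 CPM. Microglia markers summed to 284 to 323 and 305 to 332 CPM, and endothelial markers to 308 to 325 and 289 to 337.5 CPM. In each of these 4 lists the genotypes overlapped and no gene passed 5% FDR, with median log2 fold changes of 0.009, 0.006, -0.066 and 0.042 in the same order. The genes with the smallest p in them were Stmn2 at 0.12 (SE 0.04) and Nefm at -0.06 (SE 0.04), Slc1a3 and Sox9 at 0.05 each (SE 0.04 and 0.07), C1qb at -0.27 (SE 0.09) and C1qc at -0.15 (SE 0.09), and Slco1a4 at 0.13 (SE 0.07) and Tek at 0.15 (SE 0.09). Of 9 markers of Schwann cells, which make peripheral myelin, 6 were tested, none passed, the median was -0.084 (-0.490 when low counts were not filtered), and 1 of the others was at 0 in all mice. Egr2, an immediate early gene of neurons as well, stood at -0.94 (SE 0.30, edgeR adjusted p = 0.762). When wild-type mouse 3 was left out, 1 gene of this list passed, among 17 of all 15151 genes tested in that fit.

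The regional markers with the smallest p were Zic1 at 0.25 (SE 0.06, edgeR adjusted p = 0.435) and Grm4 at 0.22 (SE 0.06) for the cerebellum, and Dbh at 0.55 (SE 0.17) and Slc6a2 at 0.21 (SE 0.15) for monoamine neurons. The list medians were 0.115 and 0.210. None of the 12 and 7 genes passed 5% FDR with all 6 mice, and 2 cerebellum markers did without deficient mouse 1. In that fit 12 of all 15197 genes tested passed.

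Ranked by likeness to the mean profile of the 9 genes over the 6 mice, the 10 nearest genes included none of the listed oligodendrocyte genes. That profile stands for the 9 unevenly. The Pearson r of a gene with the mean of the rest was 0.19 for Mobp, 0.22 for Mag and 0.42 for Mbp, and up to 0.95 for Cldn11. Among 9970 other genes with a mean of at least 10 CPM, the highest Pearson r belonged to Dbn1 and Gm2115 (0.987 each), Iqsec2, Crtc1 and Atp13a1 (0.979 each), Elavl3 (0.972), Apln (0.971), Pcnxl3 (0.969), Tmem176a (0.966) and Wipi1 (0.965). These values are the top of a ranking over 6 points, which share their library and its scaling, and they carry no test. The listed genes of the sheath, its lipids and the mature cell were 65 of the 9970 genes compared. Of these 65 genes 1, Tspan2, a tetraspanin of the sheath, was among the first 100, at rank 33 with an r of 0.934. Such a count in the first 100, and none in the first 10, lie near the share of these genes among all compared.

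In the authors' deposited table, which sets wild type over deficient in its log2 fold changes, 8 of the 9 genes were positive, with the smallest p for Mal (0.0490) and an adjusted p of 0.9997 for each of the 9. As a check of the labels, Kdm6a itself was at 22.3 to 25.2 CPM in the deficient mice and at 34.3 CPM or more in each wild-type mouse (adjusted p = 0.00780 by edgeR). The libraries held 18542590 to 24531408 counts.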

How the data were processed

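Brain RNA of 6 mice was purified on columns and made into Illumina TruSeq libraries, per the labels' protocols. The authors deposited raw counts per gene symbol, 1 column per mouse. Per the file headers, the deposited table also holds a mean normalized count (a signal per gene), a log2 fold change with its error, a test score, a p-value and an adjusted p-value. The submitters' processing notes name GRCm38 and DESeq2. The aligner, counter, annotation and strandedness are not stated in these sources.

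Mice were grouped by their titles, 3 in each genotype. The test was that of edgeR 4.0.16 in R 4.3.3, with TMM scaling, default expression filter, robust quasi-likelihood fit, two-sided F test, Benjamini and Hochberg adjustment over 15030 genes, threshold 0.05. The SE comes from the fold change and F, and the 95% intervals use the fit's degrees of freedom. CPM uses TMM-scaled totals, and log2 CPM a prior count of 2. The code was tested on simulated data. The 9 genes and the 15 lists, themselves included, were chosen with earlier results of these data known. Named genes are the 9, Kdm6a, up to 4 per list by smallest p (2 for markers of other cells), and 10 by likeness. Sox10 and the genes of the last section were chosen after their values were seen. Some genes that the rule names are not reported here. Of the listed genes, 2 had no row and Zfp24 was found as Zfp191. The table has 27 rows with a number for a symbol (0.350% of counts), kept in the totals. Lengths and positions come from GENCODE on GRCm38. BLAST 2.17.0 found no transcript of another gene at least 95% identical to a member over 200 bases. Same-numbered mice did not deviate together, so numbers were not used as pairs. Alternatives were RLE scaling, other filters, DESeq2 1.42.0, limma-voom (limma 3.58.1), a fit without robust shrinkage, the mouse number as a block, and each mouse left out. With totals of 18542590 to 24531408 counts, the counting SD (log2) of each member lay below its measured SD within genotypes. It was 0.0055 against 0.14 for Mbp, but 0.0158 against 0.03 for Mal and 0.0327 against 0.07 for Myrf.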

Additional observations from a re-analysis of the deposited data

How the results depend on the processing

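None of the 9 genes passed 5% FDR in edgeR with all mice (1 had an unadjusted p under 0.05), nor under RLE scaling, other filters, DESeq2, limma-voom, the fit without robust shrinkage, the mouse number as a block, or any mouse left out. Their median log2 fold change was -0.087 to -0.085 under the settings that kept all mice and -0.114 to -0.050 with 1 mouse left out. Over all genes tested the number of calls was 7, against 25 with no filter on low counts, 20 with DESeq2, and 3 to 17 with 1 mouse left out. With the mouse number as a replicate block it was 15. The deviations of same-numbered mice correlated at -0.00, 0.08 and 0.05, and those of differently numbered mice at -0.13 to 0.07. Such values cannot exclude that same-numbered mice were handled together. Signs of 5 of the 9 changed in some fits with 1 mouse left out, over which Mbp ran from -0.149 to 0.027, Mobp from -0.119 to 0.031, Mog from -0.072 to 0.041, Mag from -0.064 to 0.066 and Opalin from -0.164 to 0.025. Mbp and Mobp were positive when wild-type mouse 1 was left out, and Opalin when deficient mouse 3 was. Mog was positive without deficient mouse 3 (0.041) and without wild-type mouse 3 (0.002). Mag was negative without deficient mouse 1 (-0.015), without deficient mouse 2 (-0.019) and without wild-type mouse 1 (-0.064). Levels per kilobase on the longest transcript were 650.5 for Mbp, 326 for Mobp, 195 for Cnp, 107 for Mag and 15.6 for Myrf, since that length is shorter. Mean CPM on plain library totals moved by less than the SD for each of the 9 genes in each genotype. With 3 mice a genotype, the 95% intervals reached down to 80.4% of wild type for Opalin, 81.3% for Mbp and 88.1% for Mal.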

Other observations

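A high value in wild-type mouse 1, as for Mbp and Mobp, was also found for Bcas1 and Map2, chosen here after their values were seen. Bcas1, which marks oligodendrocytes that have just begun to myelinate, stood at 171 CPM in that mouse, at 132 and 123 CPM in the other wild-type mice and at 142, 147 and 125 CPM in the deficient mice. Map2, a neuron marker, stood at 1448 CPM in wild-type mouse 1 and at 1228 to 1328 CPM in the other 5 mice. Wild-type mouse 1 was the highest of 6 for 19.7% of the genes with a mean of at least 10 CPM. It was the highest for 4 of 21 other sheath proteins, 1 of 19 genes of lipid synthesis and 2 of 29 other oligodendrocyte markers. The counts were 3 of 16 promoting and 1 of 11 restraining regulators, 4 of 11 precursor markers and 6 of 20 receptors and axonal partners. Among other cells they were 2 of 14 neuron, 2 of 10 astrocyte, 5 of 10 microglia and 4 of 10 endothelial markers.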
